A study of Mus musculus with 24 samples.

Results

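The genes examined here were 10 components of myostatin, activin and Smad signalling, measured by 12 probes of the 26423 on the array. Members were all probes whose platform symbol was Mstn, Gdf11, Bmp7, Acvr2a, Acvr2b, Fst, Fstl3, Smad2, Smad3 or Smad7. Each of the 10 genes was present, 8 with a single probe and 2 (Fstl3 and Smad2) with 2 probes. The samples were tibialis anterior, a muscle of the lower leg, from mice of the strain background C57BL6/J;129S1/SvImJ at 6 weeks of age. The 4 control animals had the genotype Myf6 cre/+; Hira flox/+. The 4 animals labelled Hira CKO had the genotype Myf6 cre/+; Hira flox/-. The Myf6 cre driver is active in muscle fibres and was carried by both groups, as was the floxed Hira allele. The null allele of the Hira CKO animals was present in every cell, so the groups also differed in cells without cre. Hira encodes a chaperone that places histone variant H3.3 into chromatin. With 3 arrays for the RNA of every mouse there were 24 arrays, and n counts mice. The labels do not say that mice of a group came from separate litters.

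Myostatin and its close relative GDF11 are secreted ligands of the TGF-beta superfamily, and myostatin is made by muscle fibres and restrains muscle growth. They bind the type II activin receptors ACVR2A and ACVR2B, which recruit type I receptors that phosphorylate SMAD2 and SMAD3. Follistatin and FSTL3 bind and block these ligands outside the cell, and SMAD7 blocks the signal inside it. BMP7 signals through partly the same type II receptors to another set of Smads, SMAD1, SMAD5 and SMAD9.

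Values were linear intensities, and each animal's value is the mean of its 3 arrays. The small number of mice and of arrays limits the precision. Changes are Hira CKO minus control on the scale log2(intensity + 16), which understates changes of dim probes. They were tested with limma across all probes, and a probe was called at a Benjamini-Hochberg adjusted p below 0.05. Across the array 5432 of 26423 probes (20.6%) were called, 10.5% higher and 2649 probes lower in Hira CKO. Array pairs of 1 animal correlated at a median of 0.994 over probes. The median was 0.989 for array pairs of different animals in 1 group and 0.981 for animals in different groups. The targeted gene did not separate the groups: Hira read 569, 472, 467 and 473 in controls and 614, 553, 524 and 543 in Hira CKO, a change of 0.17 log2 (95% interval -0.02 to 0.36, limma adjusted p = 0.193). The sources do not place this probe inside or outside the floxed exons, and outside them it would check nothing. Directions are those of the labelled groups.

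Of the 12 probes, 1 rose and 2 fell in Hira CKO. Smad7, the inhibitory Smad, rose 1.54-fold. The ligand gene Gdf11 fell 1.37-fold and the receptor gene Acvr2b fell 1.32-fold. The other 9 probes, Mstn among them, did not pass. The 3 calls are 25.0% of the 12 probes, beside 20.6% of all probes, so the share called was near the background. The median change of the 12 probes was -0.01 log2, and that of all probes was 0.012. Changes were positive at 6 probes and negative at 6, and their median size was 0.24 log2, beside 0.16 for all probes. Animal values of the groups did not overlap at 5 of the 12 probes (41.7%), 1 higher and 4 lower, beside 24.9% of all probes, 13.0% higher and 11.9% lower.

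**Figure D1:**
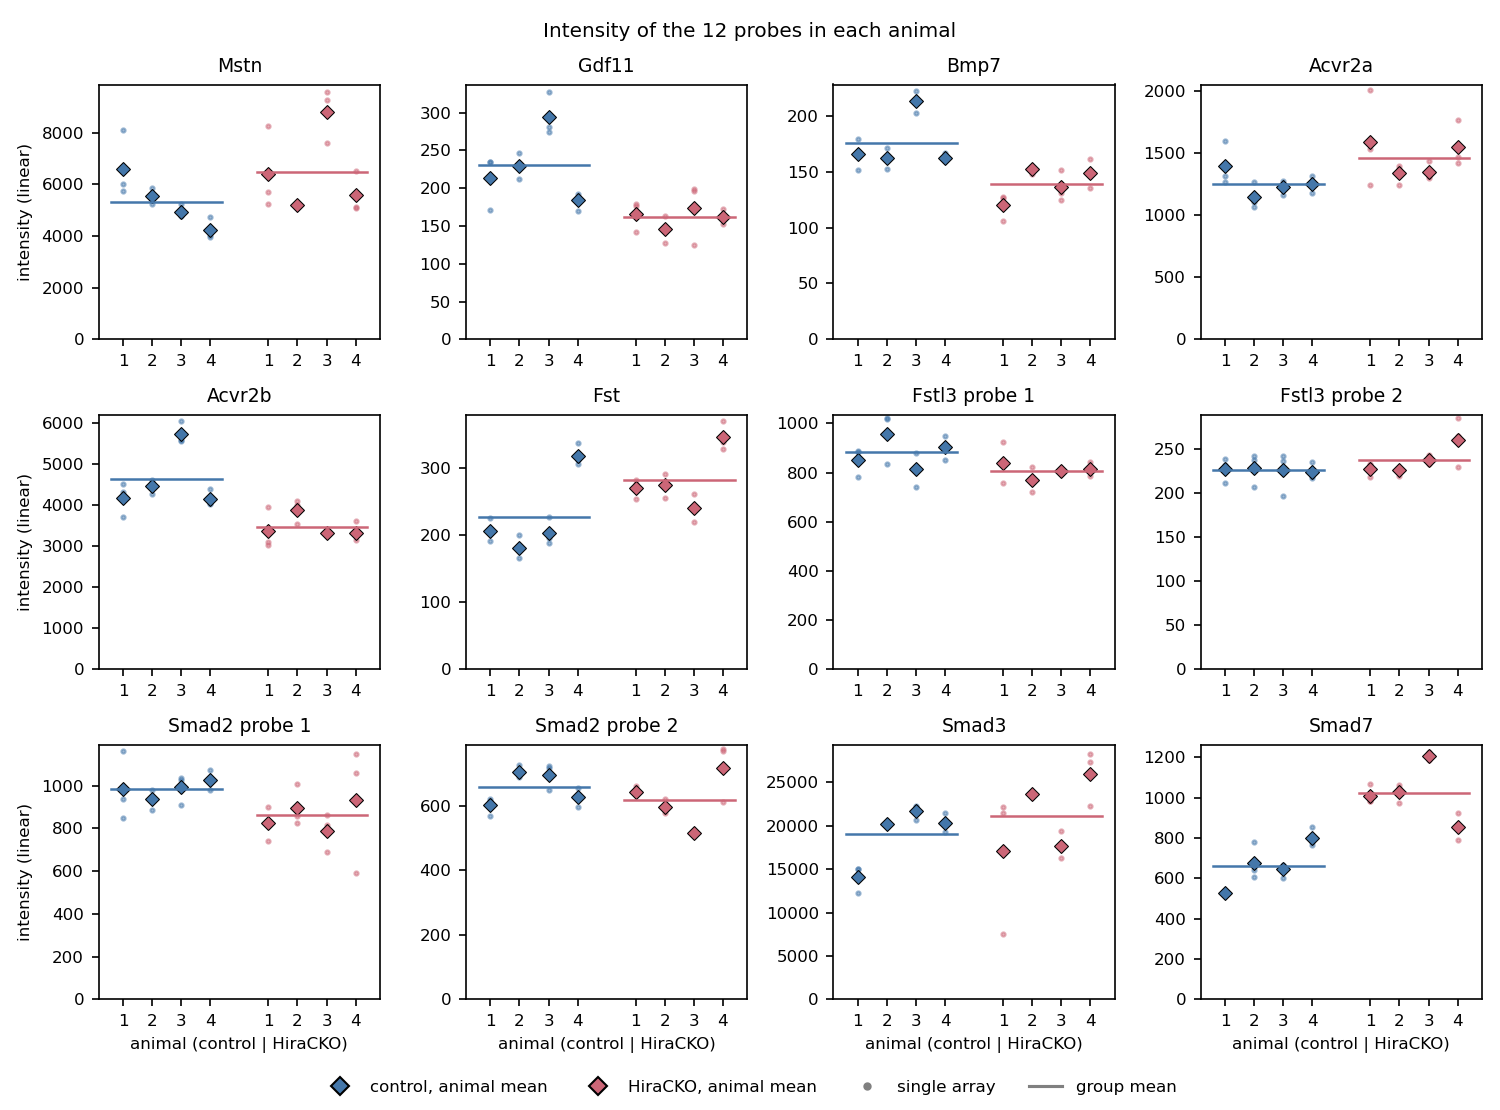
Linear intensity (y axes, each starting at 0) of the 12 probes in the 4 control and 4 Hira CKO animals (x axes). Diamonds are animal means of 3 arrays, dots single arrays and lines group means; the groups separate at Smad7, Gdf11, Acvr2b, Bmp7 and the brighter Smad2 probe (probe 1).

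**Figure D2:**
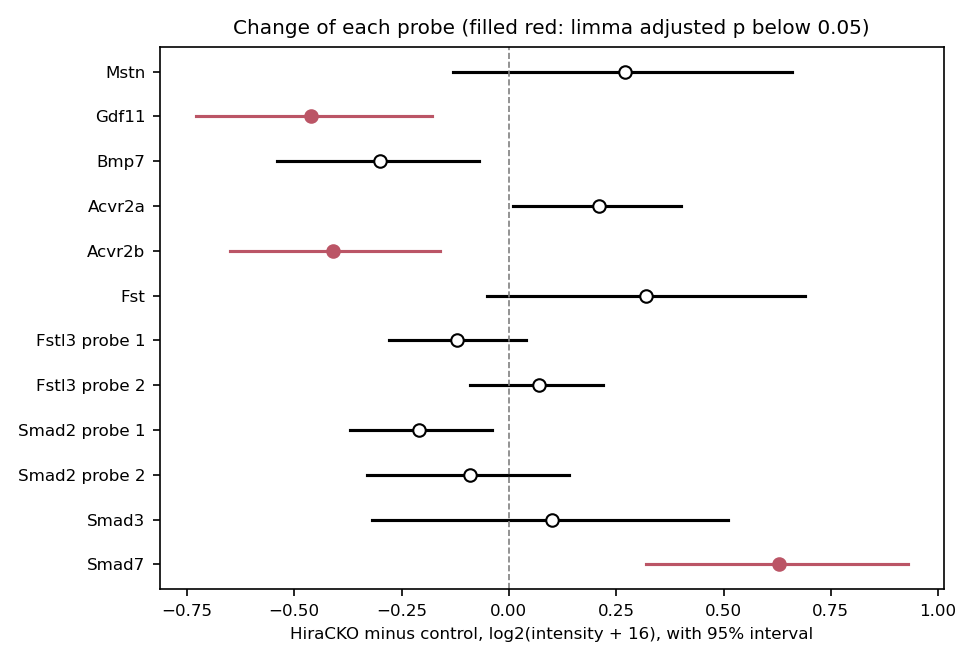
Change of each probe (x axis, Hira CKO minus control in log2(intensity + 16)) with its 95% interval from limma. Filled red points mark the 3 called probes, Smad7 at 0.63, Gdf11 at -0.46 and Acvr2b at -0.41, while the interval of Mstn runs from -0.13 to 0.66.

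Among the ligands, Mstn encodes myostatin. Control animals 1 to 4 had Mstn intensities of 6619, 5535, 4947 and 4252. Hira CKO animals 1 to 4 had 6401, 5198, 8825 and 5576. The groups overlapped, and the highest value was that of Hira CKO animal 3, whose 3 arrays read 9591, 9267 and 7616. The group means were 5338 ± 1002 and 6500 ± 1629 (SD, n = 4). The change of 0.27 log2 (SE 0.176, 95% interval -0.13 to 0.66) did not pass (limma adjusted p = 0.313). The interval thus allows a rise of up to 0.66 log2 and a fall of up to 0.13. Without Hira CKO animal 3 the change was 0.11 log2. Scatter between animals of a group (SD 0.302 log2) was wide for this gene, and arrays of 1 animal had an SD of 0.193 log2. On the array labelled repeat 2 of Hira CKO animal 1, Mstn read 8274, against 5703 and 5226 on the other arrays of that animal.

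Gdf11 encodes the ligand nearest to myostatin in sequence. Its intensity in control animals 1 to 4 was 213, 229, 294 and 184. The Hira CKO animals had 166, 146, 174 and 162. All 4 Hira CKO values lay below all 4 control values, and control animal 3 was the highest of the 8. The means were 230 ± 46.7 and 162 ± 11.5 (SD, n = 4), a change of -0.46 log2 (SE 0.124, 95% interval -0.73 to -0.18, limma adjusted p = 0.0282). Single arrays overlapped, from 170 to 327 in controls and from 125 to 199 in Hira CKO. The call was lost without control animal 2 (adjusted p 0.0621) and without Hira CKO animal 1 (0.0596), 2 (0.0766) or 4 (0.0514), and with only repeat 2 (0.0931) or only repeat 3 (0.177) of each animal. The change in fits that left out 1 animal stayed between -0.55 and -0.34. In these whole-muscle samples, fewer cells of a type and less RNA per cell cannot be told apart.

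Bmp7 encodes a bone morphogenetic protein. Its probe was dim, at 166, 162, 213 and 162 in controls 1 to 4 and at 120, 152, 136 and 149 in Hira CKO 1 to 4. The groups did not overlap. Control animal 3 stood above the other 3 controls, as it did for Gdf11 and Acvr2b. The change was -0.30 log2 (SE 0.106, 95% interval -0.54 to -0.07) and did not pass (limma adjusted p = 0.0689). In the fit of all 24 arrays with the animal as a random block it was called (adjusted p 0.00746). That fit used a single correlation of 0.401 between arrays of an animal for every probe. For Bmp7 arrays of 1 animal had an SD of 0.094 log2, against 0.160 between animals of a group. The fit thus counted repeat arrays of Bmp7 partly as replicates. Bmp7 was also called with array weights on the animal means (-0.34 log2), where its adjusted p was just below the threshold and rounds to 0.05. These were the 2 calls in 12 other fits.

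The 250 bases before the annotated start are shown for Mstn and Gdf11, the related ligand genes, and for Acvr2b, which fell as Gdf11 did. Sequences are from RefSeq, build GRCm38.p6, 5′ to 3′ on the strand of the gene. The window of Mstn is chr1:53061390-53061639 on the plus strand. That of Gdf11 is chr10:128891719-128891968 on the minus strand, and that of Acvr2b is chr9:119401928-119402177 on the plus strand. Capitals mark matches on either strand to an E-box (CANNTG), a Smad box (CAGAC) or the TATA motif (TATAAA), or to a CCAAT box, whose letters are its name.
Mstn: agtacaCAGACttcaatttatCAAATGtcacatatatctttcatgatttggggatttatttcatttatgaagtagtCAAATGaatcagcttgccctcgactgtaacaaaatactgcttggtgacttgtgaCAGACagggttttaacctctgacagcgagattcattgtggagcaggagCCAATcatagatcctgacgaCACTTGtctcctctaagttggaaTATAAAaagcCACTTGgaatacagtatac
Gdf11: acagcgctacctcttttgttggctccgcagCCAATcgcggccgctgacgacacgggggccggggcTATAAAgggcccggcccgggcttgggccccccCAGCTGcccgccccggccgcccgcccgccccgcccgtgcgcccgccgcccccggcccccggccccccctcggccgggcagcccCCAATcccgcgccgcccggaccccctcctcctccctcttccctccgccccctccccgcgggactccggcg
Acvr2b: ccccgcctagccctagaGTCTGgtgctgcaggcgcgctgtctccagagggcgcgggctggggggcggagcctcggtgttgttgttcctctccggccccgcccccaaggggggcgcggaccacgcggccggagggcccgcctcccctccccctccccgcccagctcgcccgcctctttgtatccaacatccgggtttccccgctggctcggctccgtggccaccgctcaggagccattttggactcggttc

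The windows of the related ligand genes differ in composition, with 38.4% G and C in Mstn and 81.2% in Gdf11, beside a median of 52.4% over 32851 promoter windows of that length. Mstn held 4 E-boxes, 2 Smad boxes, 1 CCAAT box and a TATA motif whose first base lies 29 bases before the start. Gdf11 held 1 E-box, 2 CCAAT boxes and a TATA motif 185 bases before the start. Acvr2b, with 72.8% G and C, held 1 Smad box. No match in a window says only that these letters are not in it. An E-box was found in 66.2% of all windows, a Smad box in 42.2%, a CCAAT box in 33.8% and a TATA motif in 12.4%. Windows matched for 6 of the 10 genes: Mstn, Gdf11, Acvr2a, Acvr2b, Fstl3 and Smad3. Of these, 3 had an E-box and 4 a Smad box. Bmp7, Fst, Smad2 and Smad7 were not matched.

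The receptor genes encode the type II receptors that bind myostatin, GDF11 and activins. Acvr2b read 4173, 4472, 5730 and 4148 in controls 1 to 4. In Hira CKO 1 to 4 it read 3368, 3875, 3320 and 3330. The groups did not overlap, and 3 of the 4 Hira CKO animals lay between 3320 and 3368. Acvr2b fell from 4631 ± 747 to 3473 ± 269 (SD, n = 4), a change of -0.41 log2 (SE 0.112, 95% interval -0.65 to -0.16, limma adjusted p = 0.0298). The call did not survive the removal of 5 of the 8 animals in turn: control animal 2 (adjusted p 0.0562) or 3 (0.0531) and without Hira CKO animal 1 (0.0748), 3 (0.0659) or 4 (0.0619). It was also lost with only repeat 2 (0.0757) or only repeat 3 (0.218) of each animal. Without control animal 3, whose value was the highest, the change was -0.30 log2.

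Acvr2a, the paralogue of Acvr2b, read 1395, 1149, 1227 and 1254 in controls and 1595, 1340, 1353 and 1556 in Hira CKO. Control animal 1 lay above Hira CKO animals 2 and 3, so the groups overlapped. The change was 0.21 log2 (SE 0.088, 95% interval 0.01 to 0.40) and did not pass (limma adjusted p = 0.12). It was called in none of 8 fits that left out 1 animal and in none of 13 other fits.

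Of the secreted inhibitors, Fst encodes follistatin. Control animals 1 to 4 had Fst intensities of 206, 181, 204 and 319, and Hira CKO animals 271, 275, 241 and 346. The 3 other controls lay below every Hira CKO animal, while control animal 4 lay above 3 of them. The change was 0.32 log2 (SE 0.165, 95% interval -0.05 to 0.69) and did not pass (limma adjusted p = 0.199). Without control animal 4 it was 0.48 log2 and was called (adjusted p 0.0253). The arrays of that animal read 338, 313 and 306, so its value did not come from a single array. Fst was also called with all 24 arrays and the animal as a random block (adjusted p 0.0445). That fit used a single correlation of 0.401 between arrays of an animal for every probe. For Fst arrays of 1 animal had an SD of 0.104 log2, against 0.281 between animals of a group. The fit thus counted repeat arrays of Fst partly as replicates.

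Fstl3, a relative of follistatin, had 2 probes. The brighter probe read 851, 958, 816 and 903 in controls and 839, 771, 807 and 813 in Hira CKO, with overlap. The dimmer probe read 228, 229, 226 and 224 in controls and 228, 226, 238 and 260 in Hira CKO, again with overlap. Their changes were -0.12 log2 (limma adjusted p = 0.268) and 0.07 log2 (limma adjusted p = 0.537), and neither passed. The difference between them, -0.19 log2 (SE 0.064), had an exact two-sided permutation p of 0.0571 and 0.114 after adjustment over the 2 genes with 2 probes. The smallest p that 4 against 4 animals can give is 0.0286.

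Among the Smads, Smad2 and Smad3 encode the transcription factors that carry the myostatin and activin signal. The brighter Smad2 probe read 983, 939, 993 and 1027 in controls and 825, 898, 789 and 933 in Hira CKO, without overlap. Its change was -0.21 log2 (SE 0.073, 95% interval -0.37 to -0.04) and did not pass (limma adjusted p = 0.0712). Its 3 arrays of Hira CKO animal 4 read 1149, 1059 and 592, so that animal lay below the controls through a single array. With the median of the 3 arrays the change was -0.15 log2 (adjusted p 0.311), and with only repeat 1 of each animal it was -0.03. The dimmer Smad2 probe read 601, 703, 696 and 626 in controls and 643, 595, 515 and 718 in Hira CKO. It overlapped and changed by -0.09 log2 (limma adjusted p = 0.564). The changes at the 2 probes differed by -0.11 log2 (SE 0.102, exact two-sided permutation p = 0.314, 0.314 after adjustment over the 2 genes).

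Smad3 read 14116, 20226, 21715 and 20340 in controls and 17034, 23612, 17686 and 25984 in Hira CKO. The groups overlapped, and animal 1 was the lowest of each group. The change was 0.10 log2 (SE 0.186, 95% interval -0.32 to 0.51, limma adjusted p = 0.748). On the array labelled repeat 2 of Hira CKO animal 1 the probe read 7505, against 21458 and 22140 on its other arrays. With the median of the 3 arrays of each animal, an alternative chosen after seeing these values, the change was 0.20 log2 (adjusted p 0.402). The sign of the change turned without control animal 1 (-0.04), without Hira CKO animal 4 (-0.02) and with only repeat 2 of each animal (-0.15).

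Smad7 encodes the inhibitory Smad that binds activated type I receptors and that Smad signalling itself induces. It read 528, 675, 644 and 799 in controls 1 to 4. In Hira CKO 1 to 4 it read 1009, 1027, 1207 and 854. Every Hira CKO animal lay above every control, the nearest values being control animal 4 and Hira CKO animal 4. Smad7 rose from 661 ± 111 to 1024 ± 144 (SD, n = 4), a change of 0.63 log2 (SE 0.135, 95% interval 0.32 to 0.93, limma adjusted p = 0.0102). Single arrays ran from 522 to 852 (median 650) in controls and from 792 to 1227 (median 1015) in Hira CKO. Arrays of 1 animal had an SD of 0.093 log2, less than the 0.221 log2 between animals of a group. Smad7 was called in all 8 fits that left out 1 animal (adjusted p 0.00688 to 0.029) and in all 13 other fits, which left the threshold at 0.05.

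**Figure D3:**
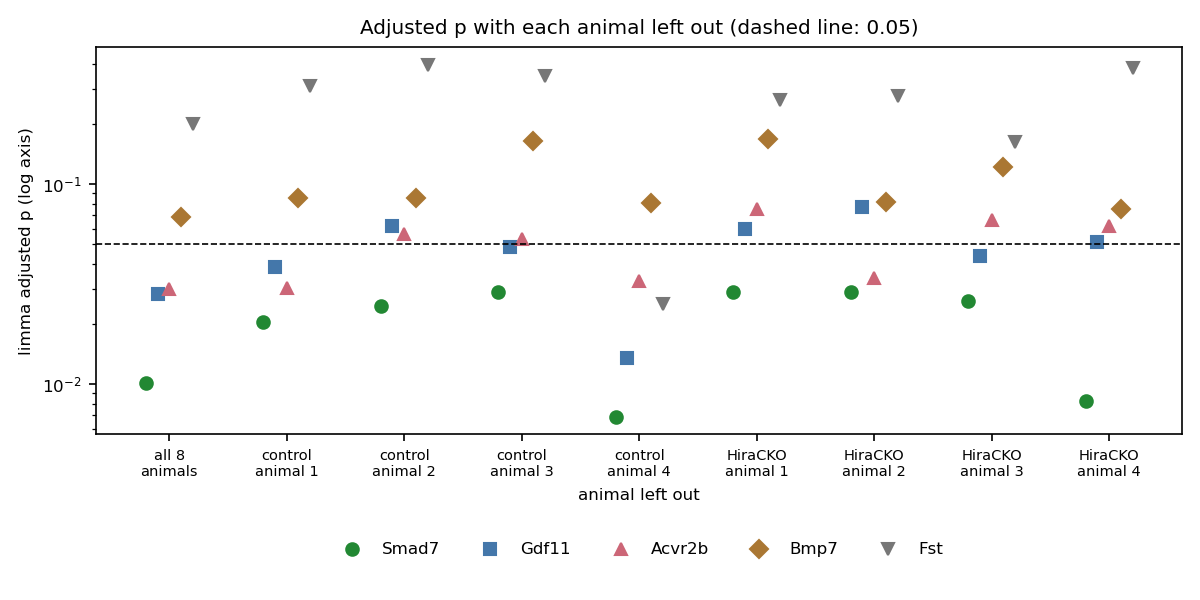
Adjusted p from limma (y axis, log scale) for 5 genes with all 8 animals and with each animal left out (x axis). Smad7 stays below the dashed line at 0.05 throughout, Gdf11 and Acvr2b cross it, Bmp7 stays above it, and Fst falls below it without control animal 4.

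The number of called members differed with the animal left out. Fits without 1 animal also called fewer probes on the array, 3680 to 5133 beside 5432. The 2 falls became 0 without control animal 2, Hira CKO animal 1 or Hira CKO animal 4. They became 1 without control animal 3, Hira CKO animal 2 or Hira CKO animal 3. The single rise became 2 without control animal 4, where Fst joined Smad7.

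Related members were compared through their log2 ratio in each animal, which tests whether their changes differ. For Mstn and Gdf11 the changes differed by 0.72 log2 (SE 0.222, 95% interval 0.18 to 1.26). The ratio did not overlap between groups, from 4.00 to 4.85 in controls and from 4.96 to 5.56 in Hira CKO. For Acvr2a and Acvr2b the changes differed by 0.61 log2 (SE 0.173, 95% interval 0.19 to 1.04), with ratios from -2.21 to -1.57 in controls and from -1.52 to -1.09 in Hira CKO. Both pairs had an exact two-sided permutation p of 0.0286, the smallest that 4 against 4 animals can give. After adjustment over the 4 pairs compared both had a p of 0.0571 in this exact permutation test and did not pass 0.05. A pair alone at that smallest p would be adjusted to 0.114. With both pairs at that smallest p, neither could pass unless a further pair reached it too. Not passing therefore does not say that the changes are alike. The changes of Fst and Fstl3 differed by 0.44 log2 (95% interval -0.06 to 0.94, exact permutation p = 0.0857, adjusted 0.114). Those of Smad2 and Smad3 differed by -0.30 log2 (95% interval -0.79 to 0.18, exact permutation p = 0.2, adjusted 0.2). Leaving out 1 animal at a time gave 0.57 to 0.86 for Mstn and Gdf11, 0.50 to 0.71 for Acvr2a and Acvr2b, 0.31 to 0.59 for Fst and Fstl3 and -0.42 to -0.17 for Smad2 and Smad3. The lowest size in the last pair, -0.17, was without control animal 1. With the dimmer probe the difference of Fst and Fstl3 was 0.25 and that of Smad2 and Smad3 was -0.19.

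The wider pathway was described with 7 lists of ligands, receptors, extracellular inhibitors and activators, Smads, Smad cofactors and target genes. Of 114 genes listed, the 10 members among them, 105 were measured. Each was taken once, at its brightest probe, where 21.2% of all named genes were called, 11.0% higher and 10.2% lower. In the pathway 14 genes rose and 9 fell (21.9% called), with a median change of -0.02 log2. The share called was near that of all genes. Counts differed with the animal left out. Fits without 1 animal called 3680 (control animal 3) to 5133 (control animal 1) probes on the array, beside 5432. Without Hira CKO animal 4 it was 5031. The 14 rises became 7 without Hira CKO animal 4, 8 without control animal 2 or 3 or Hira CKO animal 1, and 9 without Hira CKO animal 2. The 9 falls became 3 without control animal 3 or Hira CKO animal 1 and 5 without control animal 4 or Hira CKO animal 2.

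**Figure D4:**
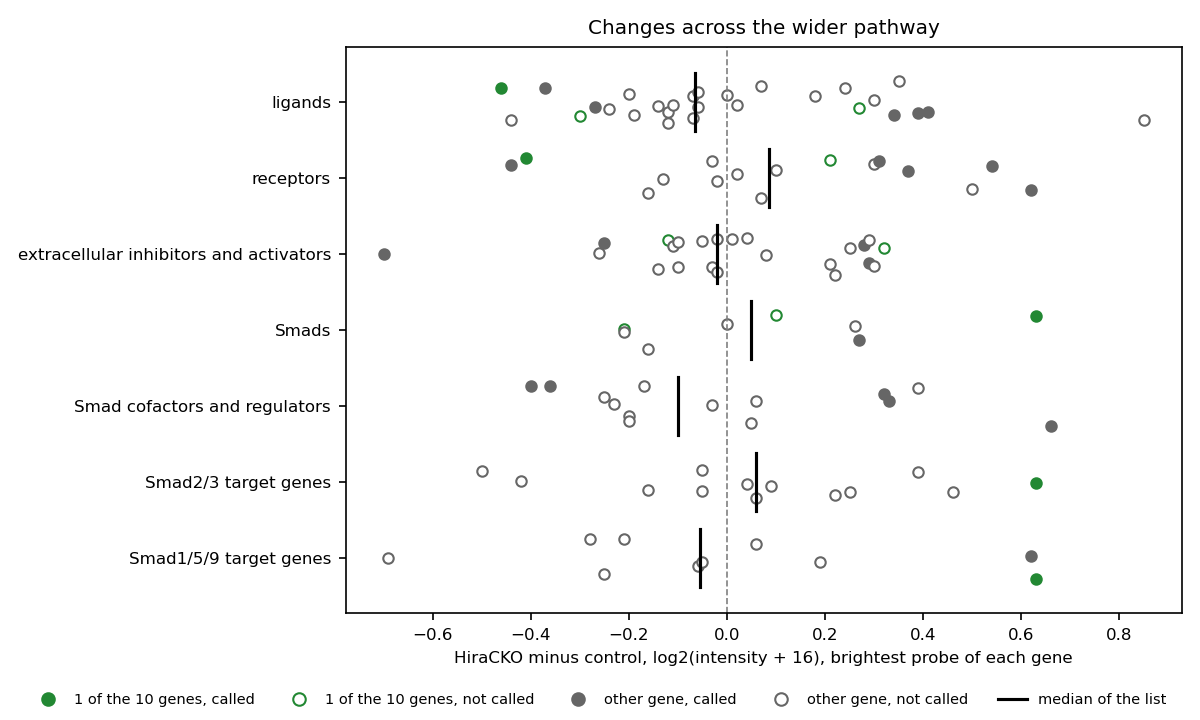
Change of each measured pathway gene at its brightest probe (x axis, Hira CKO minus control in log2(intensity + 16)) by list (y axis), with vertical bars at list medians. Filled points were called, green points are the 10 genes described here, and list medians lie between -0.10 and 0.09.

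Of 28 ligand genes 3 rose and 3 fell, with a median of -0.06 log2. Tgfb3, a TGF-beta ligand, rose by 0.41 log2, from 3951 ± 511 to 5224 ± 435 (SD, n = 4). Bmp5 rose by 0.39 and Bmp8b by 0.34. Besides Gdf11 the falls were in Bmp2 (-0.37 log2) and in Inhbb (-0.27), which encodes a subunit of activin B. Inhbb is named after its values were seen. Inhba, the subunit of activin A, changed by -0.14 log2 and did not pass (limma adjusted p = 0.186). The widest change among the ligands was that of Bmp10, also named after its values were seen. Bmp10 went from 387 ± 144 to 705 ± 151 (SD, n = 4), a change of 0.85 log2 that did not pass (limma adjusted p = 0.0608). In fits that left out 1 animal the call of Bmp8b held in all 8, while it was lost in 2 for Tgfb3, 4 for Bmp5 and Inhbb and 7 for Bmp2.

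Of 16 receptor genes 4 rose and 2 fell, with a median of 0.09 log2. Bambi encodes a decoy receptor that lacks the kinase domain and dampens TGF-beta family signals. It read 420, 382, 275 and 427 in controls and 513, 520, 569 and 533 in Hira CKO, without overlap. Bambi rose by 0.62 log2 (SE 0.153, limma adjusted p = 0.0187), and single control arrays ran from 103 to 524. Eng, an accessory receptor of endothelial cells, rose by 0.54 log2 (adjusted p 0.00209). Bmpr1b, a type I BMP receptor, rose by 0.37. Tdgf1, a co-receptor named after its values were seen, rose by 0.31. Acvrl1, a type I receptor of endothelial cells, fell by 0.44 log2 (adjusted p 0.00753). The calls of Bambi, Eng and Acvrl1 held in all 8 fits that left out 1 animal. In 13 other fits Eng was called in 13 and Acvrl1 in 12, but Bambi in 8, with changes from 0.26 to 1.07 log2. Arrays of 1 animal had an SD of 0.550 log2 for Bambi, more than the 0.258 log2 between animals of a group. The calls of Bmpr1b and Tdgf1 were lost in 5 and 7 of the 8 fits that left out 1 animal. Of 6 endothelial markers, 0 rose and 3 fell (Pecam1, Kdr and Emcn). The calls of Kdr and Emcn held in all 8 fits that left out 1 animal, and that of Pecam1, whose groups overlapped, was lost in 6. The summed intensity of all 6 endothelial markers was 22910 to 25933 in controls and 18979 to 20932 in Hira CKO. The part of endothelial cells in the changes of Eng and Acvrl1 was not tested.

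Of 23 extracellular inhibitors and activators 2 rose and 2 fell, with a median of -0.02 log2. Twsg1, a secreted modulator of BMP binding, fell by 0.70 log2, from 5582 ± 630 to 3464 ± 622 (SD, n = 4, limma adjusted p = 0.0052). Wfikkn1, which encodes a secreted protein that binds myostatin and GDF11, fell by 0.25 log2. Its relative Wfikkn2 changed by 0.29 and did not pass (limma adjusted p = 0.155). Ltbp3, which holds latent TGF-beta in the matrix, rose by 0.29 log2, and Chrd, the BMP antagonist chordin, by 0.28. Twsg1 and Ltbp3 stayed called whichever of the 8 animals was removed, while removing any of 6 ended the call of Wfikkn1, and any of 6 that of Chrd.

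Of 8 Smad genes 2 rose and 0 fell, with a median of 0.05 log2. Beside Smad7 the rise was in Smad4, the partner shared by all signalling Smads, at 0.27 log2 (limma adjusted p = 0.0436). Removing any of 7 animals ended that call. The inhibitory Smad6 changed by -0.21 log2 and did not pass (limma adjusted p = 0.0957). Of 14 Smad cofactors and regulators 3 rose and 2 fell. Ep300, a histone acetyltransferase recruited by Smads, rose by 0.66 log2, from 1208 ± 62.8 to 1925 ± 98.5 (SD, n = 4, limma adjusted p = 0.000246). Runx1, named after its values were seen, rose by 0.32 log2 and by 0.63 at its dimmer probe. Nedd4l, a ubiquitin ligase that acts on Smads, rose by 0.33 and by 0.54 at its dimmer probe. Foxh1, a Smad-binding transcription factor, fell by 0.40 log2 and Smurf1, a ubiquitin ligase of Smads and receptors, by 0.36. The call of Ep300 held in all 8 fits that left out 1 animal. At the probes that gave the counts, those of Foxh1, Smurf1, Nedd4l and Runx1 were lost in 3, 5, 7 and 7.

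Of 13 genes listed as targets of Smad2 and Smad3 signalling 1 rose, Smad7 itself, and 0 fell, with a median of 0.06 log2. Of 10 genes listed as targets of the BMP Smads 2 rose, Smad7 and Bambi, and 0 fell, with a median of -0.06 log2. Smad7 is thus counted in 3 lists. The widest change in the BMP target list that did not pass was that of Id1, a BMP-induced inhibitor of differentiation factors, named after its values were seen. Id1 went from 8665 ± 2669 to 5324 ± 1397 (SD, n = 4), a change of -0.69 log2 (limma adjusted p = 0.0669). Its relatives in the list, Id2 (-0.06 log2, limma adjusted p = 0.874) and Id3 (-0.25, limma adjusted p = 0.398), did not pass either.

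Markers of the labelled tissue were bright. Beside the counts below, 21.2% of all named genes were called at their brightest probe. Of 12 fibre markers listed, 6 were measured. Acta1 (-0.55 log2) and Ckm (-0.28) fell, and 0 rose. Removing any of 6 animals ended the call of Ckm, and none ended that of Acta1. The summed intensity of all 6 measured fibre markers was 1133487 to 1311728 in controls and 1020934 to 1137138 in Hira CKO. Lymphocyte markers rose at 2 of 5 genes (Cd3e and Cd79b), with sums of 2326 to 3627 and 3284 to 5065. Cd79a, which was not called, was the largest part of those sums, with means of 1245 in controls and 2128 in Hira CKO. Its arrays of 1 animal had an SD of 0.937 log2. The call of Cd3e held whichever animal was removed, and removing any of 7 ended that of Cd79b. Lymphocyte changes ran from -0.25 log2 (Ptprc, limma adjusted p = 0.0959) to 0.72 (Cd79a, limma adjusted p = 0.156), and neither extreme passed. In the tendon list 1 of 6 genes rose, Thbs4 (0.80 log2), with sums of 21149 to 39812 in controls and 44674 to 58712 in Hira CKO. Thbs4 made up most of those sums, going from a mean of 26201 to 44413. The other 5 tendon genes changed by -0.09 (Fmod) to 0.35 (Tnmd) and did not pass. Among smooth muscle and pericyte markers 1 of 5 fell (Rgs5), with sums of 22749 to 33205 and 19219 to 25877. Among macrophage markers 1 of 6 rose (Itgam, a call that removing any of 6 animals ended), with sums of 5125 to 8083 and 5454 to 7363. Macrophage changes ran from -0.43 log2 (Adgre1, limma adjusted p = 0.0671) to 0.40 (Itgam), with a median of 0.03. Of 5 satellite cell, 6 fibroblast, 4 Schwann cell and 6 adipocyte markers 0 passed in limma. Satellite cell changes all lay between -0.39 (Itga7) and -0.01 (Vcam1), with a median of -0.21 log2 beside 0.008 for all named genes. Pax7 came nearest to passing (-0.21 log2, limma adjusted p = 0.0551), and its groups did not overlap. The part of other cell types in the changes of Smad7, Gdf11 and Acvr2b was not tested.

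The probes whose pattern was most like that of Mstn were found from values centred on the group means over the 8 animals. They named Rcvrn (Pearson r = 0.977), Olfr1378 (0.977), Sowahd (0.971), Hao2 (0.955) and Tescl (0.952). These are the 5 highest of the correlations with all named probes, over 8 animals that share arrays with Mstn, and are given as a description.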

How the data were processed

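Per the labels, 5 micrograms of Cy5-labelled total RNA were used for each 1-colour array. The deposited table held linear intensities already normalized by the authors, as judged from its values: array medians lay between 431.5 and 433.5, every array had the maximum 439069.7, and 81.1% of values lay within 0.001 of a whole multiple of 1 in 24, which averaging ranks over 24 arrays (quantile normalization) would give. The scanner and the background method are not given in the sources used here. Without detection calls dim probes were kept, and without slides or scan dates a batch of arrays and the genotype cannot be told apart.

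The platform annotation gave 1 symbol to 20377 of 26423 probes, several to 0 and none to 6046. RefSeq's gene table (GRCm38.p6) updated 2126 through synonyms, and 38 were kept as given. Values below 0 were set to 0, 16 was added, log2 was taken and the 3 arrays of an animal were averaged. The 4 and 4 animals were set against each other in R 4.3.3 by lmFit and eBayes of limma 3.58.1, with Benjamini-Hochberg adjustment over all probes. Pairs of probes were compared with exact permutation tests over 70 assignments of the animals, with intervals from the pooled SD. On simulated data with 26423 probes the fit for this comparison recovered 41.8% of 67 changes of 0.5 log2. It recovered 86.6% of 67 changes of 1 log2 and 98.5% of 66 of 2 log2. Only these probes were changed, far fewer than the 5432 called in the data. The adjustment over all probes was therefore stricter there, and these shares do not give the share of changes found in this comparison. Figures were drawn with matplotlib 3.10.9.

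The members, gene lists and tests were chosen with earlier results of these data known. Named genes were all members, Hira, up to 4 other called genes with the widest change in each pathway list, and the 5 probes most like Mstn. Genes outside this rule are marked as named after their values were seen, except markers and uncalled relatives of a named gene (Inhba, Wfikkn2, Smad6, Id2, Id3). Markers were also named after their values were seen. These were the called markers, and uncalled ones at the extremes of a list or nearest to passing. Alternatives were other normalizations, pseudocounts of 1 and 50, dropping the dimmest 30% of probes, single repeats, all arrays with a random block, the median array, a block on animal number, array weights, a trended robust variance, other thresholds, and each animal left out.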

Additional observations from a re-analysis of the deposited data

Results flagged for a closer look

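In 60 groups of 4 animals, from the member probes, the other named pathway genes and Hira, 5 had an animal far from the rest, and chance gives about 1 in 20. The measure is the gap to the nearest animal over the range of the group, set against Dixon's critical value for 4 samples. Control animal 3 stood apart for Bmp7 (0.915), at 213 against 162 to 166 in the other controls. Hira CKO animal 2 stood apart for Acvr2b (0.913), at 3875 against 3320 to 3368. Hira CKO animal 1 did so for Ltbp3 (0.914), at 12668 against 11572 to 11667. Control animal 4 did so for Wfikkn1 (0.854), at 103 against 116 to 119. Control animal 1 did so for Hira (0.945), at 569 against 467 to 473.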

How the results depend on the processing

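The main counts were 5432 probes called on the array, 1 member probe higher and 2 lower, and 14 pathway genes higher and 9 lower. With only repeat 1, 2 or 3 of each animal 3191, 2848 and 3124 probes were called on the array. Lower member probes were then 0 with repeat 2 and 0 with repeat 3, higher pathway genes 7, 4 and 7, and lower pathway genes 2 with repeat 2 and 0 with repeat 3. With all 24 arrays and the animal as a random block, 7254 probes were called on the array, 2 member probes were higher and 16 pathway genes lower. That fit used a single correlation of 0.401 between arrays of an animal for every probe. Array weights gave 3 lower member probes, with Bmp7 added, and 15 lower pathway genes, while 6778 probes were called on the array. The median of the 3 arrays, chosen after seeing the data, gave 5 lower pathway genes while 4759 probes were called. At an adjusted p of 0.01, 2409 probes were called on the array, 0 member probes higher and 0 lower, and 2 pathway genes higher and 2 lower. At 0.1, 7762 probes were called on the array, and 4 member probes and 17 pathway genes were lower. Over the 8 fits that left out 1 animal, member probes ranged from 1 to 2 higher and 0 to 2 lower. Pathway genes ranged from 7 to 11 higher and 3 to 10 lower. Those fits called 3680 to 5133 probes on the array. The cause was not tested.

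Animals of different groups with the same number were not paired by the labels, and their deviations from the group means correlated at 0.296, 0.093, -0.0643 and 0.0673. With the animal number as a replicate block 4925 probes were called on the array, 1 member probe higher and 2 lower, and no member's call changed. Member changes under alternatives gave 275 values, among them those at thresholds of 0.01 and 0.1, which leave the change itself as it was. In 4 the sign turned, all at probes that did not pass. For Smad3 this was without control animal 1 (-0.04), without Hira CKO animal 4 (-0.02) and with only repeat 2 (-0.15). Without Hira CKO animal 1 the change of Smad3 was 0.23. For the dimmer Smad2 probe the sign turned with only repeat 3 (0.01). Another 16 lost their call and 6 gained one, some of each only through the changed threshold.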
